A study of Rattus norvegicus with 18 samples.

Results

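The jejunum of male Sprague Dawley rats given abemaciclib at 36 mg/kg/day was compared with that of rats given vehicle. Arrays were chosen by their treatment label, which gave 3 abemaciclib 36 arrays and 3 vehicle arrays, 6 of the 18 arrays of the study, and 14217 genes were tested. The rats were aged 6 to 8 weeks and were dosed by oral gavage once daily, and RNA came from scrapings of the jejunal mucosa, the lining of the middle stretch of the small intestine. Abemaciclib at 120 mg/kg/day and ribociclib at 300 mg/kg/day, with 3 arrays each, were set against abemaciclib 36, and palbociclib at 30 or 100 mg/kg/day entered the estimate of spread and was set against vehicle for 4 genes only. The design text gives 10 rats per group and dosing for 4 or 15 days. The labels say neither which duration nor which animal an array stands for, and p-values here cover only how these arrays scatter. Vehicle rats received 0.5% methyl cellulose, whereas abemaciclib and ribociclib were given in 0.5% hydroxypropyl methylcellulose with 0.25% tween 80 in a citrate buffer. Compound and carrier therefore cannot be told apart where abemaciclib 36 is set against vehicle. Abemaciclib 120 and ribociclib 300 share the carrier of abemaciclib 36. One abemaciclib 120 array, replicate B, is titled as dose 100 although its treatment is labelled 120.

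Abemaciclib inhibits CDK4 and CDK6, kinases that join D-type cyclins, phosphorylate the retinoblastoma protein and let a cell pass from G1 into S phase. In biochemical assays it also inhibits other kinases, among them CDK9 and GSK3. The small intestine renews its lining from dividing cells in the crypts, and intraepithelial T cells lie between the absorptive cells of the villi. The study concerns intestinal toxicity of CDK4/6 inhibitors in rats.

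Levels are log2 signals, so a difference of 1 is a 2-fold difference. Each SE rests on the spread within all 6 groups, so it can be wider or narrower than the scatter of the 2 groups compared. A gene is said to have risen or fallen, or to be called, where the adjusted p in limma was under 0.05, with n = 3 arrays per group, and each fold is that of the log2 difference. With abemaciclib 36, 71 genes rose (0.499%) and 225 fell (1.58%), together 2.08% of the genes tested. At an unadjusted p under 0.05 there were 1960 genes, 4.91% of those tested higher and 8.88% lower. For counts of list members against vehicle below, these are the shares over all genes. Rises made up 24.0% of the calls, 35.7% after quantile re-normalization and 36.5% after centring each array on its median. Arrays of the 2 groups did not overlap for all 296 called genes, against 20.3% of all genes tested. This separation was read from the values that gave the calls, so it adds no support to them. The median difference over all genes was 0.01. Correlations of arrays lay between 0.970 and 0.981 within abemaciclib 36, between 0.982 and 0.993 within vehicle and between 0.961 and 0.981 across the groups. Array medians lay between 5.41 and 5.51, and 50 of the called genes had a group mean at or under 5.5, where a signal is not shown to be above background.

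The number of calls changed with the arrays fitted. The comparison was refitted 6 times, each time without 1 of its arrays. Dropping an abemaciclib 36 array left 46 calls for replicate A, 531 for B and 166 for C. Dropping a vehicle array left 96 calls for replicate A, 67 for B and 60 for C. Replicate B lay nearest to vehicle of the 3 abemaciclib 36 arrays for 158 of the 296 called genes, replicate C for 105 and replicate A for 33. In all 6 of these fits, 38 genes were called, 11 higher and 27 lower, and 26 of the 296 were called in none of them. The number of these fits that called a gene is given below as, for example, "3 of 6 fits".

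**Figure D1:**
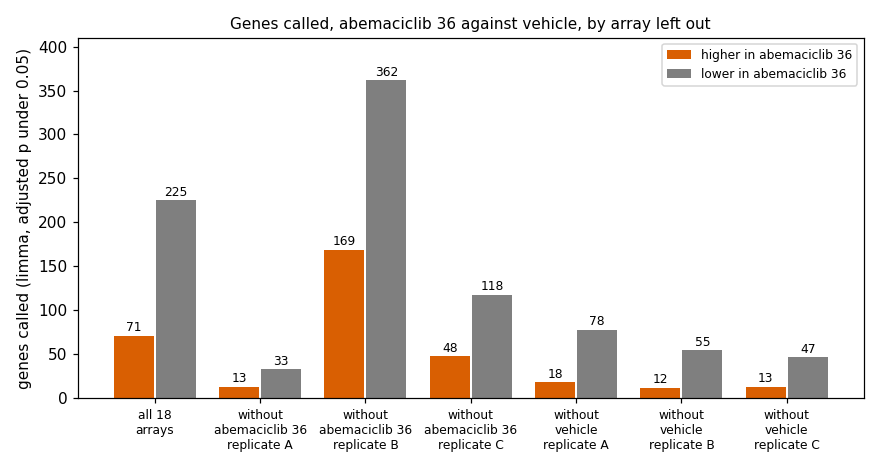
Number of genes called higher (orange) and lower (grey) in abemaciclib 36 than in vehicle, in limma at an adjusted p under 0.05, with all 18 arrays and with 1 of the 6 arrays dropped. The total was 296 with all arrays, 531 without abemaciclib 36 replicate B and 46 without abemaciclib 36 replicate A.

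Among called genes, the widest changes were in Mcm10, which rose 12.5-fold, and in Frat2, which fell 9.71-fold. Mtfr2, Phlda1, Slc25a25 and Egr1 came next among the rises of genes with a full name, and Pdk4, Klf15, Sgk1 and Tnfsf10 followed Frat2 among the falls. Phlda1 had vehicle levels under the array medians, so that its size and its place in this order are uncertain. In all, 14 genes rose and 13 fell by more than 4-fold. The median size of the difference over the called genes was 1.15 on the log2 scale.

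**Figure D2:**
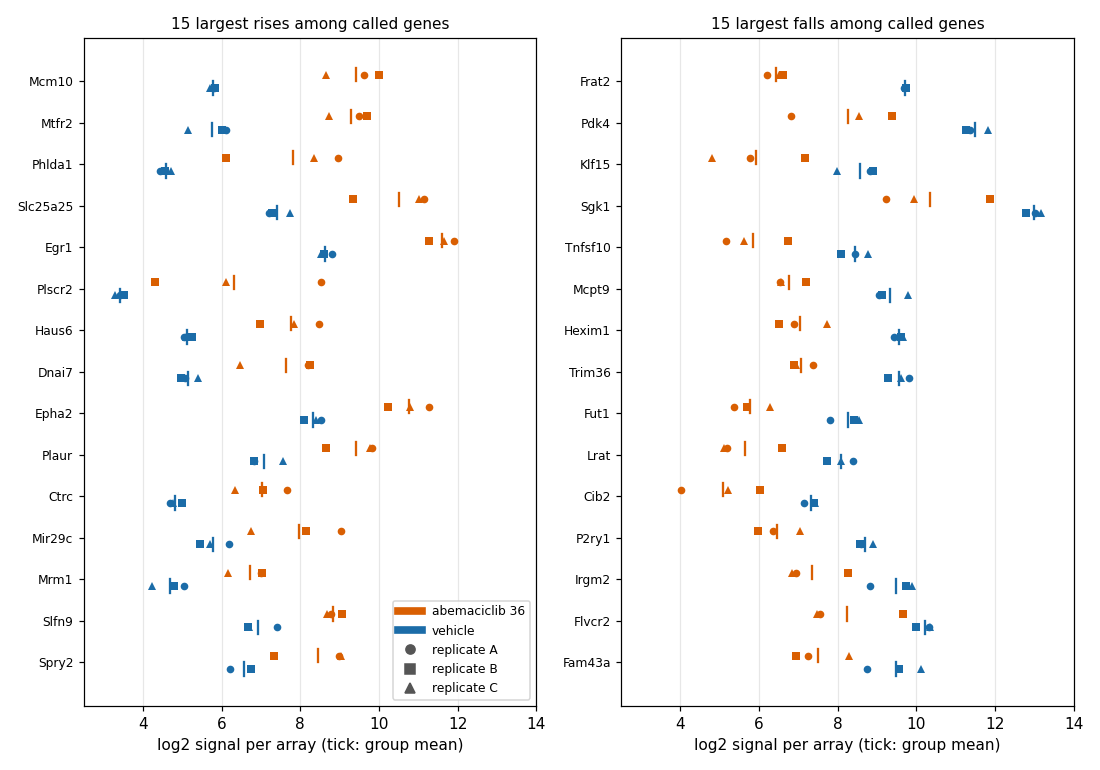
log2 signal of each array for the 15 largest rises (left) and the 15 largest falls (right) among called genes, loci with placeholder symbols left out, with abemaciclib 36 in orange above vehicle in blue, marker shapes for replicates and ticks for group means. The arrays of the 2 groups are apart for each of these genes, and abemaciclib 36 replicate B (squares) is the array nearest to vehicle for Phlda1, Sgk1 and Flvcr2.

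Frat2 shared the smallest adjusted p with Gpsm2 and Maf. It encodes a protein that binds GSK3, the kinase that marks beta-catenin for degradation in Wnt signalling. Frat2 had 6.21, 6.62 and 6.50 in abemaciclib 36 replicates A, B and C, against 9.70, 9.73 and 9.74 in vehicle. The abemaciclib 36 arrays were all low, the vehicle arrays lay within 0.1 of each other, and the groups were far apart. The difference was -3.28 (SE 0.33, adjusted p = 0.000208 in limma), and Frat2 was called in 6 of 6 fits, with a highest adjusted p of 0.00369. The 250 bases before its start (RefSeq, GRCr8, chr1:250605780-250606029, minus strand) are shown because this gene has the largest fall, with an E-box, CACGTG, in capitals.
Frat2 promoter: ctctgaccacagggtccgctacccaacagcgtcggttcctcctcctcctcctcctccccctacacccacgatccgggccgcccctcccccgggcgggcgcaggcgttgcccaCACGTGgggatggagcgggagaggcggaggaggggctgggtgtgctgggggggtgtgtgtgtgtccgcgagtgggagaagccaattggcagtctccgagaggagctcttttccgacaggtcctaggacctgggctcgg
The E-box begins at position -138 from the start, and this letter string, which reads alike on both strands, is found in 8.94% of the 11700 promoters of tested genes (300 bases each), in 9.26% of those of genes that rose and in 10.3% of those of genes that fell.

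Of the 34 measured genes of the Wnt pathway, 3 fell and 0 rose, with a median difference of 0.02, against 1.58% of all genes tested called lower. Beside Frat2 these were Fzd8 and Fzd4, receptors for Wnt ligands. Fzd8 had 4.59, 4.32 and 4.85 in abemaciclib 36, against 6.76, 5.51 and 6.04 in vehicle (difference -1.52, SE 0.36, adjusted p = 0.0364 in limma). Fzd4 differed by -0.78 (SE 0.19, adjusted p = 0.0469 in limma). In limma over all probe sets this Fzd4 probe set had an adjusted p of 0.0521. Another one, at a mean of 4.60, differed by -0.23 there (adjusted p = 0.542). Both receptors had abemaciclib 36 levels under the array medians and were called in 1 of 6 fits, with highest adjusted p values of 0.144 without vehicle replicate A and 0.241 without vehicle replicate C.

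Axin2, the feedback inhibitor that Wnt signalling induces, was the 1 called gene among 15 measured Wnt targets, which had a median difference of 0.25. It had 7.77, 8.25 and 8.04 in abemaciclib 36, against 6.60, 6.24 and 6.34 in vehicle. All 3 abemaciclib 36 arrays were above all vehicle arrays, and Axin2 rose 3.08-fold (difference 1.63, SE 0.35, adjusted p = 0.024 in limma). It was called in 1 of 6 fits, with a highest adjusted p of 0.113 without vehicle replicate B. Other Wnt targets did not pass, Cd44 with a difference of 0.45 (adjusted p = 0.289 in limma) and Lgr5, the receptor that marks crypt-base stem cells, with 0.25 (adjusted p = 0.5 in limma).

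Genes of the drug's main target gave no calls. None of the 17 measured genes of CDK4, CDK6, the cyclins, the retinoblastoma family and E2F factors was called in limma, 0 had an unadjusted p under 0.05, and the median difference was 0.04. Cdk4 had 7.31, 7.76 and 8.74 in abemaciclib 36, against 7.40, 7.99 and 7.47 in vehicle (difference 0.32, SE 0.46, adjusted p = 0.843 in limma). Ccnd1, which encodes cyclin D1, differed by 0.69 (adjusted p = 0.652 in limma), and Rbl1 and Rbl2, relatives of the retinoblastoma gene, by -0.40 and -0.36.

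Of 8 inhibitors of cyclin-dependent kinases, 2 fell and 0 rose, against 1.58% of all genes tested called lower. Cdkn2d encodes p19, an INK4 protein that binds CDK4 and CDK6, and Cdkn1b encodes p27, which binds cyclin complexes of several CDKs. Cdkn2d had 6.27, 6.21 and 6.60 in abemaciclib 36, against 8.23, 8.28 and 8.38 in vehicle, 2 narrow and separate ranges. It fell 3.83-fold (difference -1.94, SE 0.26, adjusted p = 0.00188 in limma) and was called in 6 of 6 fits. Cdkn1b had 8.91, 10.19 and 9.76 in abemaciclib 36, against 10.80, 11.13 and 11.12 in vehicle, and replicate A was the lowest array. Cdkn1b fell 2.63-fold (difference -1.40, SE 0.28, adjusted p = 0.0194 in limma), and it was called in 3 of 6 fits, with a highest adjusted p of 0.099 without vehicle replicate B. Cdkn1a, which encodes p21, was 0.58 higher (SE 0.23) and did not pass (adjusted p = 0.247 in limma).

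Genes of DNA replication and of mitosis gave few calls. Among 46 measured replication genes, 2 rose and 0 fell, with a median difference of -0.10, and among 38 measured mitosis genes 0 were called in limma, 2 had an unadjusted p under 0.05, and the median difference was 0.23. The mitosis genes varied between the abemaciclib 36 arrays. Their median difference from the vehicle mean was -0.09 in replicate A, -0.11 in replicate B and 0.84 in replicate C. Without replicate C their median over the comparison was -0.12. Mki67, the proliferation marker, had 6.97, 7.68 and 8.57 in abemaciclib 36, against 8.90, 8.01 and 7.78 in vehicle, and the groups overlapped.

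The replication genes that rose were Mcm10 and Orc1, which act at the start of replication. Mcm10 had 9.61, 10.00 and 8.65 in abemaciclib 36, against 5.80, 5.82 and 5.71 in vehicle. All 3 abemaciclib 36 arrays were high and the vehicle arrays lay close to the array medians (difference 3.65, SE 0.77, adjusted p = 0.0221 in limma). A second probe set of Mcm10 gave a difference of 3.88. Mtfr2, a regulator of mitochondrial fission, had 9.49, 9.69 and 8.73 in abemaciclib 36, against 6.12, 6.00 and 5.13 in vehicle, and rose 11.7-fold (adjusted p = 0.0203 in limma). Mcm10, Mtfr2 and Orc1 were each called in 2 of 6 fits, with highest adjusted p values of 0.0983 without abemaciclib 36 replicate A, 0.103 without vehicle replicate C and 0.099 without vehicle replicate B. The Orc1 difference was 0.61 at levels under the array medians.

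Augmin is the complex that starts new microtubules along the spindle, and 2 of its subunits went opposite ways. Haus6 had 8.47, 6.97 and 7.84 in abemaciclib 36, against 5.03, 5.25 and 5.10 in vehicle. The lowest abemaciclib 36 array was still well above the vehicle arrays, which lay under the array medians, so that the size of the fold is uncertain. Haus6 rose 6.2-fold (difference 2.63, SE 0.38, adjusted p = 0.0029 in limma) and was called in 6 of 6 fits. A second, dimmer Haus6 probe set, at a mean of 3.72, differed by only 0.24 (adjusted p = 0.33 in limma over all probe sets). Haus8 fell 2.94-fold (difference -1.55, SE 0.32, adjusted p = 0.0203 in limma) and was called in 1 of 6 fits, with a highest adjusted p of 0.124 without abemaciclib 36 replicate A. Of the 14 measured genes of this group, no other passed. Gpsm2, which orients the spindle, fell 3.49-fold in 6 of 6 fits, with 8.47, 9.11 and 8.77 in abemaciclib 36, against 10.59, 10.33 and 10.84 in vehicle (difference -1.80, SE 0.18, adjusted p = 0.000208 in limma).

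Several genes that growth factors induce rose, where 0.499% of all genes tested were called higher and 1.58% lower. Of 31 measured immediate early genes, 3 rose (Egr1, Nr4a2 and Klf10) and 0 fell, with a median difference of 0.31. Of 24 measured feedback regulators of ERK signalling and ligands of the EGF receptor, 3 rose (Phlda1, Spry1 and Spry2) and 1 fell (Dusp2), with a median difference of 0.31, and 14 members had abemaciclib 36 arrays all above vehicle, against 7.95% of all genes tested. Both lists were lower in replicate B, where the median difference from the vehicle mean was 0.07 and 0.16, than in replicate A, with 0.34 and 0.41, and replicate C, with 0.52 and 0.48. Without abemaciclib 36 replicate B, 5 immediate early genes and 4 ERK feedback genes rose, and without any other single array 1 and 0 did.

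Egr1, a zinc-finger factor switched on within minutes of stimulation, had 11.92, 11.26 and 11.66 in abemaciclib 36, against 8.81, 8.59 and 8.52 in vehicle. Its arrays fell into 2 tight, separate groups, and Egr1 rose 7.86-fold (difference 2.98, SE 0.61, adjusted p = 0.0203 in limma). The SD of Egr1 was 0.33 in abemaciclib 36 and 0.15 in vehicle, but 1.73 in ribociclib 300, whose arrays also enter the SE. Klf10, a repressor of growth, had 11.25, 11.30 and 11.49 in abemaciclib 36, against 10.05, 9.81 and 10.08 in vehicle (difference 1.37, SE 0.18, adjusted p = 0.00188 in limma). Klf10 was called in 6 of 6 fits, and Egr1 and the nuclear receptor Nr4a2 (3.52-fold, adjusted p = 0.0297 in limma) in 1 of 6, with highest adjusted p values of 0.0983 and 0.167 without abemaciclib 36 replicate A. Fos, the best known gene of this class, had 11.99, 12.07 and 12.08 in abemaciclib 36, against 12.50, 11.85 and 12.22 in vehicle, and its groups overlapped.

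Spry2, an inhibitor of growth factor signalling, had 8.98, 7.32 and 9.03 in abemaciclib 36, against 6.20, 6.74 and 6.74 in vehicle. Phlda1 had 8.97, 6.11 and 8.36 in abemaciclib 36, against 4.44, 4.57 and 4.71 in vehicle. In both, abemaciclib 36 replicate B stood lower than replicates A and C, and the groups did not overlap. The vehicle levels of Phlda1, and those of Spry1 with a mean of 4.86, lay under the array medians, where a signal is not shown to be above background, so that the folds of these genes are uncertain. Spry2 rose 3.69-fold, Spry1 2.06-fold and Phlda1 9.44-fold, and each was called in 1 of 6 fits, with highest adjusted p values of 0.13, 0.0891 and 0.149 without abemaciclib 36 replicate A. Dusp2, a phosphatase that acts on ERK, fell by 0.75 (SE 0.15, adjusted p = 0.0181 in limma) at levels under the array medians, in 3 of 6 fits with a highest adjusted p of 0.107 without abemaciclib 36 replicate A. Areg, which encodes the EGF receptor ligand amphiregulin, had 11.94, 10.77 and 11.46 in abemaciclib 36, against 8.87, 8.51 and 9.62 in vehicle, and just missed the threshold (difference 2.39, SE 0.60, adjusted p = 0.0505 in limma).

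With Haus6, Slc25a25 and Epha2 had the largest rises among genes called in 6 of 6 fits. Slc25a25 carries ATP with magnesium into mitochondria in exchange for phosphate. It had 11.15, 9.33 and 11.02 in abemaciclib 36, against 7.19, 7.29 and 7.75 in vehicle (difference 3.09, SE 0.49, adjusted p = 0.00491 in limma). Epha2, a receptor tyrosine kinase for ephrins at cell contacts, had 11.27, 10.23 and 10.80 in abemaciclib 36, against 8.52, 8.08 and 8.39 in vehicle (difference 2.43, SE 0.40, adjusted p = 0.00583 in limma). For both genes replicate B was the lowest abemaciclib 36 array and still lay above vehicle. The 250 bases before each start (RefSeq, GRCr8, chr3:36116582-36116831, minus strand, and chr5:158888379-158888628, plus strand) are shown because both hold the cAMP response element TGACGTCA, in capitals, at positions -158 and -52 from the start.
Slc25a25 promoter: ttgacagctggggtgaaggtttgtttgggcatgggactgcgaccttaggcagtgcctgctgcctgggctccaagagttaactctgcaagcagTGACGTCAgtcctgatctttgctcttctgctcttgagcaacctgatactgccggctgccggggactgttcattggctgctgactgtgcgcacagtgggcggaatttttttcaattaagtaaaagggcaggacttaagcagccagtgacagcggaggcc
Epha2 promoter: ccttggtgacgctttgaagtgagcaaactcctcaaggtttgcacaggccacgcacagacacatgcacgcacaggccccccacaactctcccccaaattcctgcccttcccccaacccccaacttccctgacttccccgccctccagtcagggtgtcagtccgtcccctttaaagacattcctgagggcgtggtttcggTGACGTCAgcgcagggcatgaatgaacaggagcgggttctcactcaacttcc
This letter string, which reads alike on both strands, was in the promoters of 4 of 54 genes that rose with a sequence here (Slc25a25, Epha2, Adnp2 and Vps37b), in 6 of 194 genes that fell, Ppargc1a among them, and in 2.85% of the 11700 promoters of tested genes. The count among genes that rose includes Slc25a25 and Epha2, which are shown because they hold the string, so it adds no support. Adnp2 and Vps37b were called in 2 and 1 of 6 fits, with highest adjusted p values of 0.187 and 0.177 without abemaciclib 36 replicate A. Efna1, a ligand of Epha2, went the other way and fell 3.65-fold, with 7.92, 9.09 and 8.49 in abemaciclib 36, against 10.27, 10.56 and 10.28 in vehicle (adjusted p = 0.0109 in limma). Efna1 was called in 4 of 6 fits, with a highest adjusted p of 0.073 without abemaciclib 36 replicate A. Plaur, the receptor of urokinase, rose 5.11-fold, with 9.83, 8.66 and 9.78 in abemaciclib 36, against 6.83, 6.82 and 7.56 in vehicle (adjusted p = 0.0188 in limma), and was called in 2 of 6 fits, with a highest adjusted p of 0.099 without vehicle replicate B. A dim second probe set of Plaur differed by 0.41 and did not pass.

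**Figure D3:**
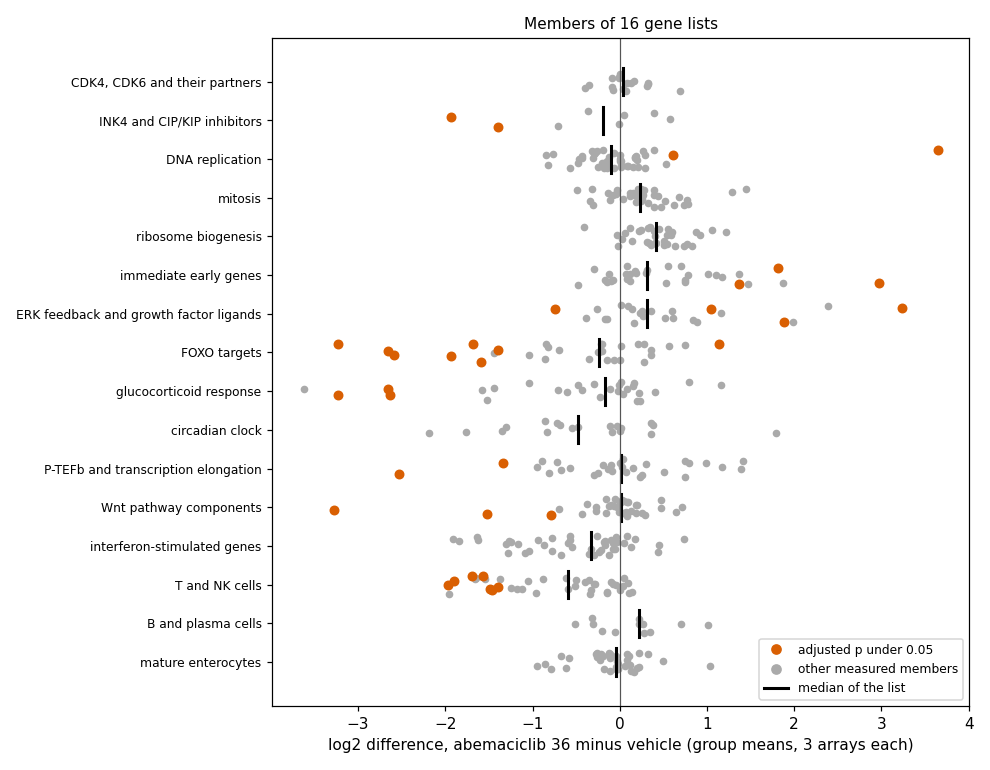
log2 difference, abemaciclib 36 minus vehicle, of each measured member of 16 gene lists, with called genes in orange, other members in grey and the median of each list as a black bar. Medians lie between -0.60 for the T and NK cell list and 0.41 for ribosome biogenesis, and called members lie mostly to the left of 0 among FOXO targets and T and NK cell genes.

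Several genes that FOXO factors and glucocorticoids induce fell, where 1.58% of all genes tested were called lower and 0.499% higher. FOXO factors are transcription factors that insulin signalling keeps out of the nucleus. Of 31 measured FOXO genes and targets, 7 fell (Pdk4, Klf15, Tnfsf10, Ppargc1a, Sesn1, Cited2 and Cdkn1b) and 1 rose (Foxo3), with a median difference of -0.23, and 13 had abemaciclib 36 arrays all below vehicle, against 12.3% of all genes tested. Of 28 measured genes of the glucocorticoid response, 3 fell (Pdk4, Klf15 and Sgk1) and 0 rose, with a median difference of -0.17. Pdk4 and Klf15 belong to both lists. With 1 array dropped, between 5 and 7 FOXO genes fell, while the glucocorticoid count was 6 without abemaciclib 36 replicate B and 1 without abemaciclib 36 replicate A or vehicle replicate C. With only the 2 groups fitted, 5 FOXO genes and 1 glucocorticoid gene fell. Of 17 KLF and SP factors, Klf15 fell and Klf10, described above, rose. Klf15 did not pass with only the 2 groups fitted.

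Pdk4, the kinase that closes pyruvate dehydrogenase in fasting, had 6.82, 9.39 and 8.55 in abemaciclib 36, against 11.35, 11.26 and 11.82 in vehicle. Klf15, a factor that glucocorticoids and fasting induce, had 5.76, 7.16 and 4.81 in abemaciclib 36, against 8.83, 8.90 and 7.98 in vehicle. Sgk1, a kinase that raises sodium uptake in epithelia, had 9.23, 11.87 and 9.93 in abemaciclib 36, against 13.01, 12.78 and 13.16 in vehicle. In all of these genes replicate B was the abemaciclib 36 array nearest to vehicle, and the groups did not overlap. Pdk4 fell 9.36-fold (adjusted p = 0.00923 in limma), Klf15 6.33-fold (adjusted p = 0.0123) and Sgk1 6.21-fold (adjusted p = 0.0102). They were called in 5, 3 and 4 of 6 fits, with highest adjusted p values of 0.0518 without vehicle replicate C, and of 0.0713 and 0.0622 without abemaciclib 36 replicate A. Pck1, which encodes a gluconeogenic enzyme under the same hormones, had 7.18, 11.18 and 8.90 in abemaciclib 36, against 12.44, 12.94 and 12.75 in vehicle, and did not pass (difference -3.62, SE 0.99, adjusted p = 0.0732 in limma). The classic glucocorticoid targets Tsc22d3 (difference -1.58, SE 0.50) and Fkbp5 (0.41, SE 0.51) did not pass either, and Nr3c1, the receptor itself, was 1.04 lower (adjusted p = 0.0578 in limma).

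Ppargc1a, Sesn1, Cited2 and Tnfsf10 were called in 6 of 6 fits. Ppargc1a, a coactivator of mitochondrial biogenesis, had 6.49, 7.28 and 6.66 in abemaciclib 36, against 9.03, 8.61 and 8.60 in vehicle (difference -1.94, SE 0.28, adjusted p = 0.0029 in limma). Sesn1, which restrains mTORC1, had 7.90, 8.73 and 8.28 in abemaciclib 36, against 9.68, 10.05 and 10.25 in vehicle (difference -1.69, SE 0.28, adjusted p = 0.00583 in limma). Cited2, a cofactor of the acetyltransferases CBP and p300, fell 3.01-fold, with 8.89, 8.51 and 8.57 in abemaciclib 36, against 10.51, 10.26 and 9.97 in vehicle. Their groups were narrow and apart. Tnfsf10 encodes the death ligand TRAIL and had 5.16, 6.73 and 5.63 in abemaciclib 36, against 8.45, 8.08 and 8.77 in vehicle (difference -2.59, SE 0.38, adjusted p = 0.0029 in limma). It was the 1 called gene of 25 measured death receptor and BCL2 family genes, and Sesn1 the 1 called gene of 16 p53 targets and of 26 genes of insulin, AKT and mTOR signalling. Foxo3 had 11.49, 11.85 and 11.43 in abemaciclib 36, against 10.65, 10.25 and 10.46 in vehicle, and rose 2.2-fold (adjusted p = 0.0203 in limma), called in 3 of 6 fits with a highest adjusted p of 0.109 without vehicle replicate B.

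The lists of fasting and clock genes held no call beyond Pdk4. Of 29 measured targets of fasting and PPAR factors Pdk4 alone passed, and Angptl4, a lipase inhibitor induced by fasting, was 1.52 lower (SE 0.48, adjusted p = 0.123 in limma). Lipe, the hormone-sensitive lipase, belongs to none of these lists and fell 2.65-fold (adjusted p = 0.00583 in limma), in 6 of 6 fits, although a dimmer probe set of it differed by 0.14 (adjusted p = 0.85 in limma over all probe sets). Of 19 circadian clock genes 0 were called in limma, and the median difference was -0.48. At an unadjusted p under 0.05, 1 was higher and 6 lower, against 4.91% and 8.88% of all genes tested. Nr1d1 and Nr1d2, the REV-ERB repressors of the clock, were 2.19 (SE 0.80) and 1.30 (SE 0.39) lower without passing. The hour of sampling is not given in the sources used here.

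Some genes that control transcription itself changed. Hexim1 holds P-TEFb, the kinase pair of CDK9 and a T-type cyclin that releases paused RNA polymerase II, in an inactive particle with the 7SK RNA, and Mepce caps that RNA. Of 30 measured genes of P-TEFb and elongation, Hexim1 and Mepce fell and 0 rose, with a median difference of 0.01. At an unadjusted p under 0.05 in limma, 8 members were higher and 7 lower, against 4.91% and 8.88% of all genes tested. Hexim1 had 6.88, 6.50 and 7.72 in abemaciclib 36, against 9.44, 9.61 and 9.65 in vehicle. The vehicle arrays were close together, the abemaciclib 36 arrays lay well below them, and the difference was -2.54 (SE 0.38, adjusted p = 0.00305 in limma) and was called in 6 of 6 fits. Mepce had 5.87, 6.06 and 6.34 in abemaciclib 36, against 7.36, 7.47 and 7.44 in vehicle (difference -1.33, SE 0.31, adjusted p = 0.0344 in limma), but was called in 0 of 6 fits, with a highest adjusted p of 0.167 without abemaciclib 36 replicate A. Cdk9 had 10.26, 10.16 and 10.56 in abemaciclib 36, against 9.44, 9.64 and 9.65 in vehicle, and just missed the threshold (difference 0.75, SE 0.19, adjusted p = 0.0505 in limma).

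Among general factors, Gtf2b, which positions RNA polymerase II at the start site, had 8.47, 8.93 and 8.75 in abemaciclib 36, against 10.40, 10.76 and 10.75 in vehicle. It fell 3.79-fold (adjusted p = 0.00149 in limma). Brf2, a subunit that recruits RNA polymerase III to genes such as those of U6 and 7SK RNA, had 8.37, 8.34 and 7.66 in abemaciclib 36, against 6.49, 6.77 and 6.52 in vehicle, and rose 2.89-fold (adjusted p = 0.00379 in limma). Nup107, a subunit of the nuclear pore, rose 3.11-fold, with 8.47, 7.89 and 7.63 in abemaciclib 36, against 6.30, 6.45 and 6.33 in vehicle (adjusted p = 0.00383 in limma). None of these had overlapping groups, and all 3 genes were called in 6 of 6 fits.

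The large Maf factor Maf and the small Maf factor Mafk, which share a DNA-binding domain, went opposite ways with small errors. Maf had 10.04, 10.12 and 9.96 in abemaciclib 36, against 11.26, 11.36 and 11.36 in vehicle (difference -1.28, SE 0.13, adjusted p = 0.000208 in limma), and its other 2 probe sets differed by -1.19 and -2.16. Mafk had 11.10, 11.10 and 10.90 in abemaciclib 36, against 9.82, 9.86 and 10.01 in vehicle (difference 1.14, SE 0.14, adjusted p = 0.00131 in limma). Both were called in 6 of 6 fits. Mafk pairs with NRF2 on antioxidant genes, and of 22 measured NRF2 targets 1 fell and 0 rose. That gene was Gclc, which makes glutathione and had 7.98, 7.46 and 8.73 in abemaciclib 36, against 10.03, 10.77 and 9.13 in vehicle (adjusted p = 0.0424 in limma), called in 2 of 6 fits with a highest adjusted p of 0.21 without vehicle replicate B.

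Several genes of T and NK cells fell. Of 39 measured, 7 fell (Nkg7, Gzmm, Xcl1, Cd8a, Lck, Cd3d and Prf1) and 0 rose, against 1.58% of all genes tested called lower. Of the 39 genes 23 had abemaciclib 36 arrays all below vehicle, against 12.3% of all genes tested, and the median difference was -0.60. The mean level over the 39 genes lay between 5.77 and 5.94 in abemaciclib 36, against 6.52 to 6.77 in vehicle, and no array overlapped. Group means were above 5.5 for 23 of the 39 genes in abemaciclib 36, against 26 in vehicle. In bulk tissue, fewer cells of a type and less RNA per cell cannot be told apart. With 1 array dropped, between 1 and 6 of these genes fell, 1 without abemaciclib 36 replicate A and 2 without vehicle replicate B or C, and the median lay between -0.75 and -0.49.

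Nkg7, a protein of cytotoxic granules, had 6.31, 6.50 and 6.26 in abemaciclib 36, against 8.08, 7.75 and 7.93 in vehicle. It fell 2.96-fold (adjusted p = 0.00305 in limma) and was the member called in 6 of 6 fits. Cd8a, the coreceptor of cytotoxic T cells, had 5.11, 5.80 and 5.63 in abemaciclib 36, against 6.80, 6.96 and 7.24 in vehicle (difference -1.49, SE 0.27, adjusted p = 0.0102 in limma), another probe set fell by 1.68, and the remaining one differed by -0.17 without passing. The granule protease Gzmm fell 3.93-fold and the chemokine Xcl1 3.73-fold (adjusted p = 0.0109 and 0.0123 in limma), Xcl1 to a mean of 4.59 that lay under the array medians. Lck, Cd3d and Prf1, which encode a T cell receptor kinase, a receptor chain and perforin, fell 2.63-, 2.77- and 3.23-fold. Apart from Nkg7, the calls were lost in some fits, with highest adjusted p values of 0.0716 for Gzmm and Cd8a, 0.0737 for Xcl1, 0.155 for Lck and 0.226 for Cd3d without abemaciclib 36 replicate A, and of 0.142 for Prf1 without vehicle replicate C. Abundant members such as Gzmb, with 8.86, 8.08 and 8.40 in abemaciclib 36, against 10.16, 10.38 and 10.66 in vehicle, did not pass (adjusted p = 0.199 in limma). Gimap4, a GTPase of lymphocytes outside the list, fell 3.86-fold (adjusted p = 0.00583 in limma) in 6 of 6 fits.

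**Figure D4:**
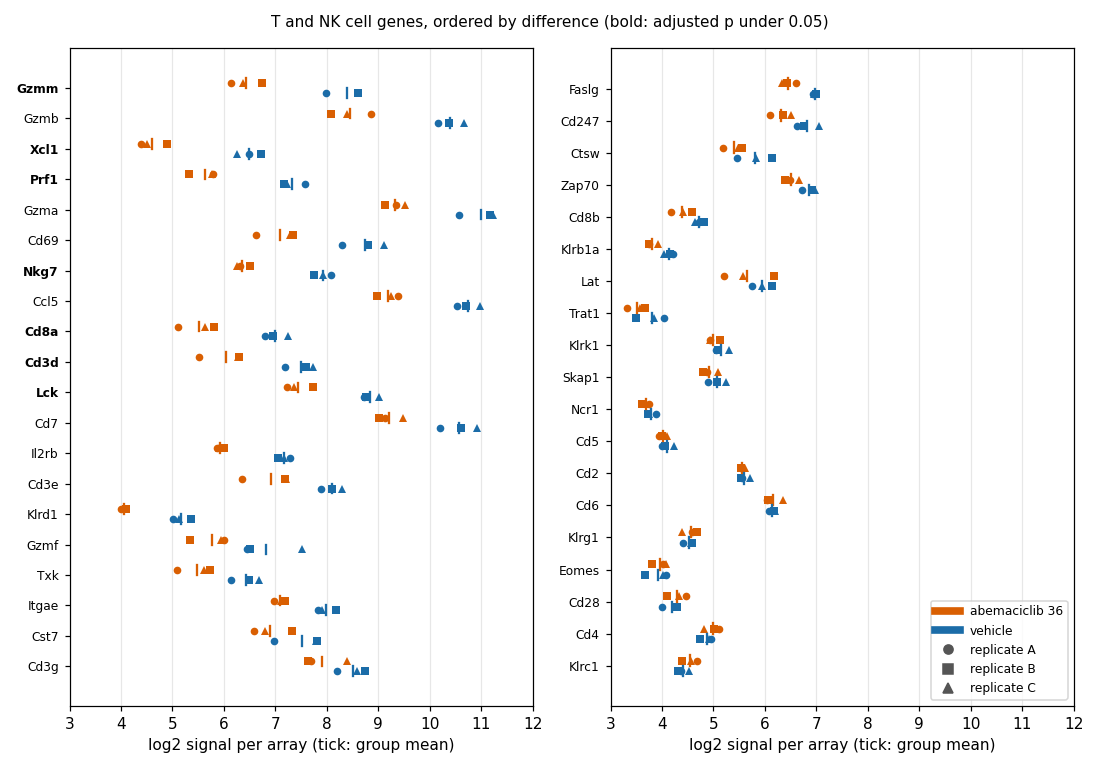
log2 signal of each array for the 39 measured T and NK cell genes, ordered by the difference between groups, with abemaciclib 36 in orange above vehicle in blue, marker shapes for replicates and ticks for group means. Names of the 7 called genes are bold, and the groups lie close together for genes such as Cd2, Cd4 and Cd28.

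Other immune lists held few calls. None of 12 B and plasma cell, 25 macrophage and dendritic cell, 10 neutrophil, 8 MHC class II, 43 interferon-stimulated and 33 cytokine and chemokine genes was called in limma, where 3, 4, 1, 0, 9 and 5 had an unadjusted p under 0.05. The 9 interferon-stimulated genes were all lower, against 8.88% of all genes tested. The median of that list was -0.33, with -0.07, -0.28 and -0.75 in abemaciclib 36 replicates A, B and C. Irf1, an interferon-induced factor, had 8.34, 9.75 and 8.41 in abemaciclib 36, against 10.74, 10.34 and 10.94 in vehicle, and came closest (difference -1.84, SE 0.49, adjusted p = 0.061 in limma). Irgm2, an interferon-inducible GTPase outside the list, fell 4.41-fold, with 6.93, 8.25 and 6.84 in abemaciclib 36, against 8.82, 9.72 and 9.89 in vehicle (adjusted p = 0.0437 in limma), and was called in 1 of 6 fits, with a highest adjusted p of 0.194 without vehicle replicate C. Of 16 mast cell genes, Mcpt9, a mast cell protease, fell 5.88-fold, with 6.54, 7.19 and 6.56 in abemaciclib 36, against 9.05, 9.12 and 9.78 in vehicle (adjusted p = 0.0325 in limma). It was also called in 1 of 6 fits, with a highest adjusted p of 0.153 without vehicle replicate C, and the median of the mast cell list was 0.02.

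Epithelial markers gave 2 calls in all. None of 38 enterocyte, 13 goblet, 10 Paneth or 11 tuft cell genes was called in limma, where 2, 4, 0 and 0 had an unadjusted p under 0.05, and the list medians were -0.05, 0.21, 0.04 and -0.03. Fabp1, a fatty acid carrier of enterocytes, had 14.16, 14.16 and 14.18 in abemaciclib 36, against 14.13, 14.23 and 14.19 in vehicle, and Muc2, the goblet cell mucin, had 13.99, 14.06 and 14.11, against 13.91, 13.79 and 13.83 in vehicle. Both lay close to the top of the deposited range, 2.86 to 14.34. Axin2 was the called gene of 17 crypt-base stem cell genes (median 0.31), and Chgb, a granule protein, that of 22 enteroendocrine genes (median 0.15, Chgb 1.89-fold higher, adjusted p = 0.0311 in limma), called in 0 of 6 fits with a highest adjusted p of 0.134 without vehicle replicate C. Chga, its relative, had 9.46, 9.42 and 9.76 in abemaciclib 36, against 8.51, 8.67 and 8.66 in vehicle, and did not pass (adjusted p = 0.0628 in limma).

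Markers of the gut wall beneath the epithelium varied between the abemaciclib 36 arrays. The median difference of 18 fibroblast genes from the vehicle mean was -0.39 in replicate A, 0.85 in replicate B and 0.34 in replicate C, and that of 16 smooth muscle genes was -0.08, 0.57 and 0.20. None of these genes, nor of 14 endothelial, 12 nerve and glia and 4 red blood cell genes, was called in limma, and 2 fibroblast genes and 1 endothelial gene had an unadjusted p under 0.05. Replicate B, highest in fibroblast and smooth muscle genes, was also the array nearest to vehicle for most called genes, and the part of these markers in the calls was not tested.

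Lists of growth and stress genes held no calls. Of 34 ribosome biogenesis genes 0 were called in limma and 4 had an unadjusted p under 0.05, with a median difference of 0.41 that was 0.24, -0.04 and 1.05 in abemaciclib 36 replicates A, B and C. Heat shock genes had a median of 0.43 with 0 of 16 called, the unfolded protein response 0.22 with 0 of 20, ATF4 targets 0.09 with 0 of 28 and cholesterol synthesis 0.12 with 0 of 20, and 3, 2, 2 and 3 of them had an unadjusted p under 0.05 in limma. Of 23 genes of drug metabolism, Nr1i3, the xenobiotic receptor CAR, fell 2.72-fold (adjusted p = 0.0443 in limma), in 1 of 6 fits with a highest adjusted p of 0.22 without abemaciclib 36 replicate A. Cyp1a1 had 5.25, 5.35 and 5.61 in abemaciclib 36, against 5.20, 12.92 and 9.33 in vehicle, so that the vehicle arrays spanned the widest range and no call was made.

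Of the remaining large changes, Fut1, Lrat and Trim36 fell in 6 of 6 fits. Fut1 adds fucose to make the H antigen of mucosal glycans and had 5.35, 5.69 and 6.27 in abemaciclib 36, against 7.80, 8.41 and 8.53 in vehicle (difference -2.48, SE 0.33, adjusted p = 0.00188 in limma). Lrat, which esterifies retinol, had 5.19, 6.58 and 5.12 in abemaciclib 36, against 8.40, 7.74 and 8.09 in vehicle (difference -2.44, SE 0.39, adjusted p = 0.00493 in limma). The abemaciclib 36 arrays of both genes reached down to the array medians. The ubiquitin ligases Trim36 and Trim32 fell 5.63- and 3.47-fold in 6 of 6 fits. Adora2b, an adenosine receptor, fell 3.14-fold in 6 of 6 fits, with abemaciclib 36 levels of 4.53, 4.86 and 4.33 that lay under the array medians. P2ry1, an ADP receptor, fell 4.66-fold (adjusted p = 0.0358 in limma) in 1 of 6 fits, with a highest adjusted p of 0.152 without vehicle replicate C.

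Further genes that fell in 6 of 6 fits were Cnksr3, a scaffold of epithelial sodium transport (2.81-fold), Fmo4, a flavin monooxygenase (3.16-fold), Rit1, a Ras-like GTPase (2.77-fold), Oaf (3.28-fold), Crebl2 (2.54-fold), Ppfia3 (3.18-fold), Ccdc80 (2.62-fold), Cdc42ep4 (1.94-fold) and the deubiquitinase Usp35 (1.73-fold). Of these, Ccdc80, Ppfia3 and Usp35 had abemaciclib 36 levels under the array medians. Gnrh1, the gonadotropin-releasing hormone gene (2.15-fold), Ptpro, a receptor phosphatase (1.92-fold), and Fam120c (2.54-fold) rose in 6 of 6 fits from vehicle levels under the array medians. Second probe sets of Gnrh1 and Fam120c differed by 0.30 and 0.14 and did not pass.

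Ctrc, a digestive protease of the exocrine pancreas, had 7.66, 7.06 and 6.34 in abemaciclib 36, against 4.69, 4.99 and 4.77 in vehicle. It rose 4.59-fold (difference 2.20, SE 0.32, adjusted p = 0.0029 in limma) in 6 of 6 fits, from vehicle levels under the array medians, so that the fold is uncertain. It was the 1 called gene of 24 measured exocrine pancreas genes, whose median difference was 0.01. Group means were above 5.5 for 7 of the 24 genes in abemaciclib 36, Ctrc among them, against 6 in vehicle. Prss1 and Cpa1, named after their values were seen, lay under the array medians in both groups. Prss1 had 3.96, 3.90 and 4.05 in abemaciclib 36, against 3.86, 3.77 and 4.21 in vehicle. Cpa1 had 4.13, 3.76 and 3.80 in abemaciclib 36, against 3.94, 4.11 and 3.92 in vehicle. The presence of pancreatic tissue was not tested.

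The probe set that the platform annotation pairs with Mir29c had 9.04, 8.15 and 6.75 in abemaciclib 36, against 6.18, 5.45 and 5.70 in vehicle. It rose 4.59-fold (difference 2.20, SE 0.48, adjusted p = 0.0249 in limma), highest in replicate A, and was called in 2 of 6 fits, with a highest adjusted p of 0.147 without abemaciclib 36 replicate A. The mature miRNAs were not measured. Their sequences (RefSeq, GRCr8, chromosome 13, plus strand) are shown because they are what this gene yields, with the seed, bases 2 to 8, in capitals.
rno-miR-29c-5p: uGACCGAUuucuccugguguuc
rno-miR-29c-3p: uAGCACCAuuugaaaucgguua
The other large rises belonged to no list described here: Plscr2, a scramblase relative, Dnai7, an axonemal dynein factor, Mrm1, a methyltransferase of mitochondrial rRNA, and Slfn9 rose 7.51-, 5.64-, 4.10- and 3.78-fold. The vehicle means of Plscr2, Dnai7 and Mrm1 were 3.41, 5.14 and 4.69, under the array medians, and their folds are uncertain. These were called in 1, 1, 2 and 3 of 6 fits, with highest adjusted p values of 0.153 without vehicle replicate C, 0.135 without abemaciclib 36 replicate A, 0.136 without vehicle replicate C and 0.111 without vehicle replicate B. Plscr2 had 8.53, 4.30 and 6.12 in abemaciclib 36, against 3.42, 3.53 and 3.28 in vehicle, so that its size rested most on replicate A. The SD of Plscr2 was 2.12 in abemaciclib 36, wider than in every other group that entered its SE of 0.70. Among the falls, Cib2, Flvcr2 and Fam43a were 4.71-, 3.98- and 3.95-fold lower, in 3, 1 and 2 of 6 fits, Cib2 to a mean of 5.08 under the array medians, with highest adjusted p values of 0.0596 and 0.185 without abemaciclib 36 replicate A and 0.153 without vehicle replicate C. Dimmer second probe sets of Mrm1 and Flvcr2 differed by 0.46 and 0.01 and did not pass.

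The dose comparison asks which of these differences go with the amount of compound, since both doses had the same carrier. Abemaciclib 36 differed from abemaciclib 120 in 1079 genes (7.59%), with 394 higher (2.77%) and 685 lower (4.82%) in limma, and the higher genes made up 36.5% of the calls. At an unadjusted p under 0.05, 8.6% of genes were higher and 12.4% lower. That share was 59.4% after centring on array medians, which moved the median of all genes by 0.18. Of the 296 genes called against vehicle, 40 also differed between the doses, 24 of them further from vehicle at 36 and 16 nearer to vehicle. These genes were picked on the same abemaciclib 36 arrays, which favours values far from vehicle there.

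Fut1 and Frat2 were lower at 36 than at 120 mg/kg/day, Fut1 in 6 of 6 fits of this comparison and Frat2 in 1 of 6. Frat2 averaged 6.44 ± 0.21 in abemaciclib 36 and 7.58 ± 0.51 in abemaciclib 120 (SD, n = 3 each, difference -1.14, 95% interval -1.84 to -0.44, adjusted p = 0.0438 in limma). Fut1 averaged 5.77 ± 0.47 in abemaciclib 36 and 7.69 ± 0.34 in abemaciclib 120 (SD, n = 3 each, adjusted p = 0.00228 in limma). Hexim1 (7.03 ± 0.62 in abemaciclib 36 and 8.37 ± 0.26 in abemaciclib 120, adjusted p = 0.0401 in limma) and Gpsm2 (adjusted p = 0.0307) were lower as well, in 2 and 1 of 6 fits, and Ctrc, Brf2, Gnrh1, Mafk and Ptpro were higher at 36, in 5, 3, 6, 6 and 5 of 6 fits. Nkg7 was nearer to vehicle at 36, with 6.35 ± 0.13 in abemaciclib 36 and 5.48 ± 0.10 in abemaciclib 120 (SD, n = 3 each, adjusted p = 0.0295 in limma), in 1 of 6 fits. The highest adjusted p in these fits was 0.171 for Frat2 without abemaciclib 120 replicate C, 0.17 for Hexim1 without abemaciclib 36 replicate B and 0.126 for Nkg7 without abemaciclib 120 replicate A. Without abemaciclib 36 replicate A it was 0.156 for Gpsm2, 0.0999 for Brf2, 0.0712 for Ctrc and 0.0634 for Ptpro. With only these 2 groups in the fit, Fut1 and Nkg7 stayed called and the other 8 of these 10 genes did not pass, with adjusted p values between 0.0861 for Ptpro and 0.176 for Gpsm2. With a covariate for RNA quality, taken from probe sets of beta-actin, 6 did not pass: Frat2 (adjusted p = 0.242 in limma), Brf2 (0.116), Nkg7 (0.106), Hexim1 (0.0955), Gpsm2 (0.087) and Ptpro (0.087). Frat2 and Gpsm2 also lost the call after quantile re-normalization (0.0814 and 0.0532) and after centring on array medians (0.0822 and 0.136), and Nkg7 after quantile re-normalization (0.0545). With replicate letters as a block Hexim1 did not pass (adjusted p = 0.0567 in limma). The other 28 of the 38 genes called in 6 of 6 fits did not pass between the doses, Cdkn2d among them with a difference of -0.23 (95% interval -0.79 to 0.32).

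Groups of genes that held few or no calls against vehicle, and the T and NK cell list that held 7, differed between the doses. Of 38 mitosis genes 37 were lower in abemaciclib 36 than in abemaciclib 120, as were 34 of 46 replication genes and 17 of 34 ribosome biogenesis genes. Of all genes tested 4.82% were lower, and 0 members of these lists were higher. Genes higher in abemaciclib 36 were 7 of 8 for MHC class II and 11 of 39 for T and NK cells, against 2.77% of all genes tested. Set against vehicle, the list medians of abemaciclib 120 were 2.35 for mitosis, 1.04 for replication and 1.71 for ribosome biogenesis. They were -3.24 for MHC class II and -1.31 for T and NK cells. In abemaciclib 36 these medians against vehicle were 0.23, -0.10, 0.41, -0.33 and -0.60, nearer to vehicle in each list. The largest single difference among the genes called was that of RT1-Bb, an MHC class II gene, with 10.91 ± 0.47 in abemaciclib 36 and 6.93 ± 0.92 in abemaciclib 120 (SD, n = 3 each). Slpi, a protease inhibitor, averaged 9.39 ± 0.16 in abemaciclib 36 and 5.51 ± 1.06 in abemaciclib 120, and the granzyme Gzma 9.33 ± 0.19 in abemaciclib 36 and 5.46 ± 1.05 in abemaciclib 120, where both lay near the array medians. Psat1, an enzyme of serine synthesis, went the other way, with 5.85 ± 0.96 in abemaciclib 36 and 9.07 ± 0.29 in abemaciclib 120. The vehicle means of RT1-Bb, Slpi, Gzma and Psat1 were 10.11, 9.14, 10.99 and 5.61. A sign of RNA quality, how far the 3' probe set of beta-actin exceeds its 5' probe set, was 0.529 to 0.800 in abemaciclib 36, against 0.862 to 1.05 in abemaciclib 120, and 436 genes were called with it as a covariate. With that covariate the calls were 21 of 38 for mitosis, 16 of 46 for replication, 5 of 34 for ribosome biogenesis, 2 of 8 for MHC class II and 11 of 39 for T and NK cells, and RT1-Bb did not pass (adjusted p = 0.139 in limma). With only the 2 doses in the fit, the calls were 25 for mitosis, 11 for replication, 1 for ribosome biogenesis, 3 for MHC class II and 9 for T and NK cells. With 1 array dropped the mitosis calls lay between 21 and 38, those of replication between 17 and 37, of ribosome biogenesis between 5 and 28, of MHC class II between 5 and 7 and of T and NK cells between 2 and 9. The fewest calls came without abemaciclib 120 replicate A for replication, ribosome biogenesis and T and NK cells, and without abemaciclib 36 replicates A and B for mitosis. RT1-Bb was called in 2 of 6 fits, with a highest adjusted p of 0.145 without abemaciclib 120 replicate A. It also lost the call with the mean of its probe sets (adjusted p = 0.279 in limma) and with array weights (0.0976). Against vehicle its brighter probe set differed by 0.80 (SE 1.04) and a dimmer one by -2.02 (SE 1.55). Neither passed in limma over all probe sets, so the size of the RT1-Bb difference is uncertain. Without single arrays the count lay between 397 (without abemaciclib 120 replicate A) and 1344 (without abemaciclib 36 replicate C), with 483 and 579 without abemaciclib 36 replicates A and B.

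Ribociclib 300, another CDK4/6 inhibitor in the same carrier, was compared at a dose that differs from that of abemaciclib. Abemaciclib 36 differed from ribociclib 300 in 54 genes (0.38%), 22 higher (0.155%) and 32 lower (0.225%) in limma, and at an unadjusted p under 0.05 10.6% were higher and 7.34% lower. The higher genes made up 40.7% of the calls, and 29.1% after centring on array medians, which moved the median of all genes by -0.105. Of the 296 genes called against vehicle 13 were among them, all 13 further from vehicle in abemaciclib 36. Being picked on the same abemaciclib 36 and vehicle arrays favours that direction, so this count adds no support. Frat2 averaged 6.44 ± 0.21 in abemaciclib 36 and 9.84 ± 0.84 in ribociclib 300 (SD, n = 3 each, difference -3.40, 95% interval -4.09 to -2.70, adjusted p = 0.000226 in limma). Haus6 averaged 7.76 ± 0.76 in abemaciclib 36 and 4.92 ± 0.43 in ribociclib 300 (adjusted p = 0.00457 in limma), and Axin2 8.02 ± 0.24 in abemaciclib 36 and 6.16 ± 0.62 in ribociclib 300 (adjusted p = 0.0288 in limma). Sgk1, Fut1, Efna1 and Maf were lower and Ptpro higher in abemaciclib 36. Frat2 and Haus6 were called in 6 of 6 fits of this comparison, Axin2 and Ptpro in 3, and Sgk1, Fut1, Efna1 and Maf in 2. The highest adjusted p was 0.118 for Axin2 and 0.128 for Maf without abemaciclib 36 replicate C, and 0.202 for Sgk1, 0.211 for Fut1, 0.161 for Efna1 and 0.185 for Ptpro without abemaciclib 36 replicate A. With only these 2 groups in the fit, 0 genes passed in limma, Frat2 included (adjusted p = 0.174), while 1131 genes had an unadjusted p under 0.05. The call was also lost with the RNA quality covariate for Sgk1 (adjusted p = 0.0605 in limma), without the trend in eBayes for Sgk1, Fut1 and Ptpro (0.0559, 0.054 and 0.054), after quantile re-normalization for Axin2 (0.0542), after median centring for Ptpro (0.0896) and with the mean of probe sets for Maf (0.0743).

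Most of the 38 genes called in 6 of 6 fits, 33 of them, did not pass between abemaciclib 36 and ribociclib 300. Cdkn2d differed by -0.44 (95% interval -0.99 to 0.12), Klf10 by 0.20 (-0.19 to 0.58), Mafk by -0.10 (-0.40 to 0.19) and Nkg7 by -0.17 (-0.66 to 0.32). Outside the genes called against vehicle, Adm, which encodes adrenomedullin, averaged 5.37 ± 0.21 in abemaciclib 36 and 8.94 ± 1.40 in ribociclib 300, and Il1b, an inflammatory cytokine, 7.51 ± 0.10 in abemaciclib 36 and 5.36 ± 0.18 in ribociclib 300 (SD, n = 3 each), both called in 6 of 6 fits. This count was the least stable of the 3 comparisons, with 11, 962 and 9 calls when abemaciclib 36 replicate A, B or C was dropped and 1524, 21 and 19 when ribociclib 300 replicate A, B or C was dropped.

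**Figure D5:**
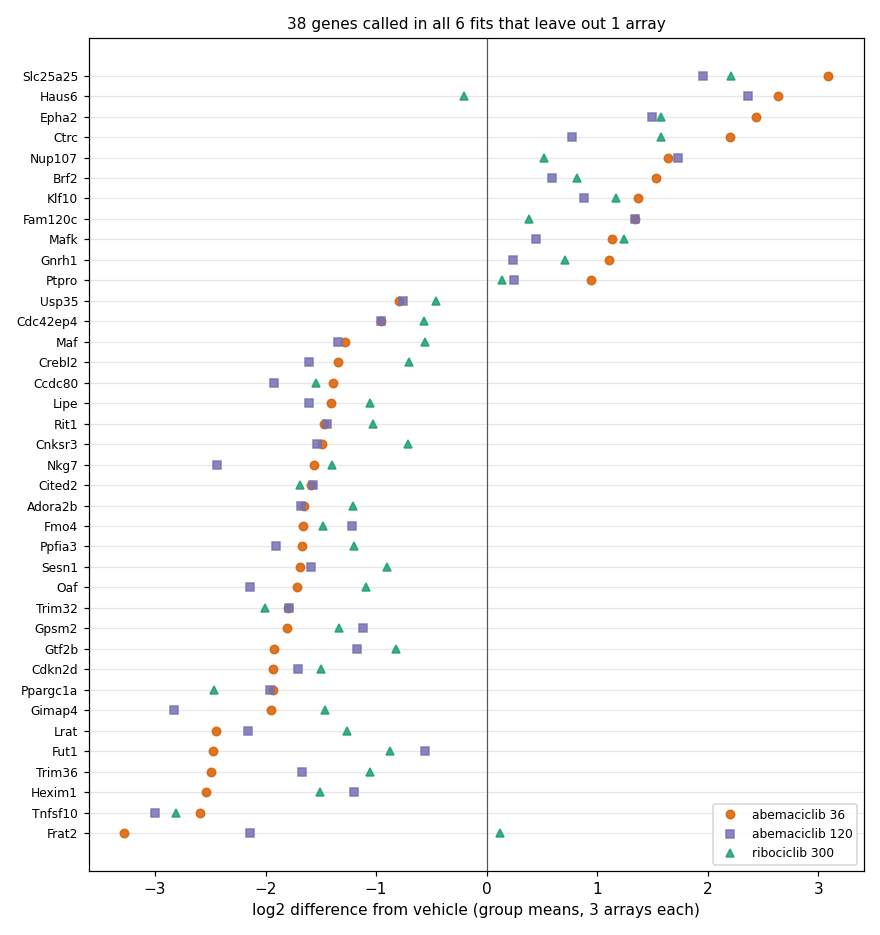
log2 difference from vehicle of the 38 genes called in 6 of 6 fits, for abemaciclib 36 (orange circles), abemaciclib 120 (purple squares) and ribociclib 300 (green triangles), all against the same vehicle arrays. Frat2, at the bottom, lies at -3.28, -2.14 and 0.12, and Haus6 at 2.63, 2.36 and -0.20.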

How the data were processed

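RNA from jejunal mucosal scrapings was hybridised to 18 Affymetrix rat arrays, 3 for each of 6 groups. Per the submitters' processing notes, the authors used Transcriptome Analysis Console and Affymetrix Expression Console with RMA, and the deposited values are log2 signals. Versions and detection calls are not given. The number of arrays, 3 for each group, limits precision. Of 31099 probe sets, 20826 had 1 gene symbol in the platform annotation, 436 several, 9780 none and 57 were controls. The probe set with the highest mean stood for each of 14217 genes. limma 3.58.1 (R 4.3.3; lmFit, eBayes with trend) was fitted to all 18 arrays with 1 mean per group, and p-values were Benjamini-Hochberg adjusted over all genes, with a threshold of 0.05. The fit was tested on simulated data.

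Members and the 45 gene lists were chosen with earlier results of these data known. Named genes are the 15 largest rises and falls among called genes with full symbols and non-overlapping arrays, up to 5 of each list by smallest p, genes called in all 6 fits that leave out 1 array, and the 5 largest differences each way for the other comparisons. Adnp2, Cd2, Cd28, Cd3d, Cd4, Cdk4, Cpa1, Efna1, Fabp1, Fkbp5, Fos, Foxo3, Gzmb, Mki67, Prf1, Prss1, Tsc22d3 and Vps37b were named after their values were seen. Replicate letters were checked for pairing by correlating deviations from group means. Same-letter arrays of abemaciclib 36 and vehicle gave 0.264, -0.068 and -0.035, and those of abemaciclib 36 and ribociclib 300 gave -0.004, 0.096 and -0.206. Abemaciclib 36 and 120 gave 0.126, 0.593 and 0.3 for A, B and C. Unlike letters reached 0.414, for abemaciclib 36 C with vehicle B. Between the doses, abemaciclib 36 A with abemaciclib 120 C gave 0.214, above A with A. Whether letters pair arrays therefore cannot be told from these values, and the labels give no source of pairing. The main fits are unpaired, and the replicate block used the letters of all 18 arrays. Alternatives were other normalizations, a filter on dim genes, other probe set rules, eBayes without trend, only the compared groups, array weights, a replicate block, an RNA quality covariate and each array left out. Some marker genes are not reported here.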

Additional observations from a re-analysis of the deposited data

How the results depend on the processing

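For abemaciclib 36 against vehicle, array weights gave 1554 called genes in place of 296. The other whole-array settings gave 213 to 400, with 400 under the replicate block, and dropping 1 array gave 46 to 531. The 213 came from fitting only the 2 groups. There, genes that fell went from 3 to 1 in the glucocorticoid and Wnt pathway lists and from 2 to 1 among CDK inhibitors. ERK feedback genes that rose went from 3 to 1, and immediate early genes that rose stayed at 3. T and NK cell genes that fell went from 7 to 14. Against abemaciclib 120, with 1079 calls, fitting only the compared groups gave 309, the RNA quality covariate 436, the replicate block 1093 and dropping 1 array 397 to 1344. Against ribociclib 300, with 54 calls, fitting only the compared groups gave 0 in limma (1131 genes at an unadjusted p under 0.05), array weights 964, the replicate block 78 and dropping 1 array 9 to 1524. The cause of these shifts was not tested. The replicate block ended the call of Hexim1 between the abemaciclib doses and of no other gene called there in 6 of 6 fits against vehicle.

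Of 75 named called genes none changed direction under any of these settings. Between 56 and 74 stayed called under the other settings that tested them all, and 39 to 67 when 1 array was dropped. Among named genes that were not called, Ccnd2 ran between -0.048 and 0.57 when 1 array was dropped, Gnat3 between -1.933 and 0.021, RT1-Bb between -1.038 and 1.767, and S100a9 between -0.246 and 0.045. With the mean of probe sets RT1-Bb was at -0.611 and Tpm1 at 0.036. The cause was not tested. The array data carry no detection calls, so levels near the array medians are not shown to be above background.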

Other observations

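Palbociclib was given in methyl cellulose, the carrier of the vehicle rats. Frat2 averaged 9.97 ± 0.30 at palbociclib 30 and 9.51 ± 0.05 at palbociclib 100, against 9.72 ± 0.02 in vehicle (SD, n = 3 each). Haus6 averaged 4.76 ± 0.40 and 4.77 ± 0.43 at these doses, against 5.13 ± 0.11 in vehicle. Cdkn2d averaged 7.82 ± 0.55 and 7.41 ± 0.25, against 8.30 ± 0.08 in vehicle, and Nkg7 7.35 ± 0.22 and 6.55 ± 0.15, against 7.92 ± 0.17. None of these 4 genes was called in limma at either palbociclib dose, where the smallest adjusted p was 0.109, for Nkg7 at palbociclib 100. The tests of abemaciclib 36 against palbociclib were not run.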
